A study of Bos taurus with 18 samples.

Results

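Cyclin-dependent kinase (CDK) inhibitors and targets of the p53 tumour suppressor were followed across clonal populations of bovine mesenchymal stem cells (MSCs). The 10 genes were chosen by symbol and cover the CIP/KIP inhibitors CDKN1A, CDKN1B and CDKN1C, the INK4 inhibitors CDKN2A, CDKN2B, CDKN2C and CDKN2D, the p53 targets MDM2 and GADD45A, and the cyclin D1 gene CCND1. All 10 symbols were found among the 16989 genes counted. RNA came from 17 clones, named A to Q, each grown from 1 cell of juvenile bovine bone marrow, and from 1 heterogeneous population (Het) that was never cloned. All populations came from the same donor and were sampled in monolayer at passage 1 in basal medium, before any chondrogenic induction. Each was sequenced once, so the error of a value is the spread between clones of this donor, and p-values measure that spread.

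The CIP/KIP proteins bind complexes of CDKs with cyclins, whereas the INK4 proteins bind CDK4 and CDK6 and keep them from cyclin D, so that the retinoblastoma protein stays unphosphorylated and holds back entry into S phase. The p53 protein is a transcription factor that responds to DNA damage and other stress, and CDKN1A, MDM2 and GADD45A are among its classic targets. In cultured stromal cells the INK4 genes CDKN2A and CDKN2B are known for rising as cells approach senescence, a permanent arrest that limits the expansion of MSCs.

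The clonal libraries held 11484812 to 18458157 reads on genes and the Het library 16092501. Levels are given as CPM, read counts set relative to the total of their library with the TMM scaling, which lessens the weight of a few abundant genes, and are compared between libraries only, since gene lengths were not used. Clones C and O were closer to each other than any other pair of libraries, with a chi-square of 5.09 per gene where 1 is the sampling noise, against 23.4 for the next pair. The labels name them as separate clones and they were kept as 2 samples, but whether they descend from 1 colony was not tested. If they do, the 17 clones hold 16 independent ones and p-values over them are too small, so the main counts are also given without both. All 8 mesenchymal stromal markers listed were counted, with a summed level of 28380 to 120400 CPM in the clones and 130600 CPM in Het. All 6 macrophage markers were higher in Het than in any clone, at a sum of 142 CPM against 1.34 to 5.99 CPM in the clones.

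The level of MKI67, which encodes the Ki-67 protein of cycling cells, separated the clones. It stood at 538, 512, 560 and 593 CPM in clones C, G, L and O, and between 21.8 CPM (clone M) and 196 CPM (clone I) in the other 13 clones. Het had the lowest level of all, at 18.6 CPM. These 4 high clones therefore carry much of any relation with MKI67, and results below are also given for the 13 remaining clones, a choice made after seeing the data. A lower share of cycling cells and less MKI67 RNA per cycling cell cannot be told apart in bulk RNA.

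**Figure D1:**
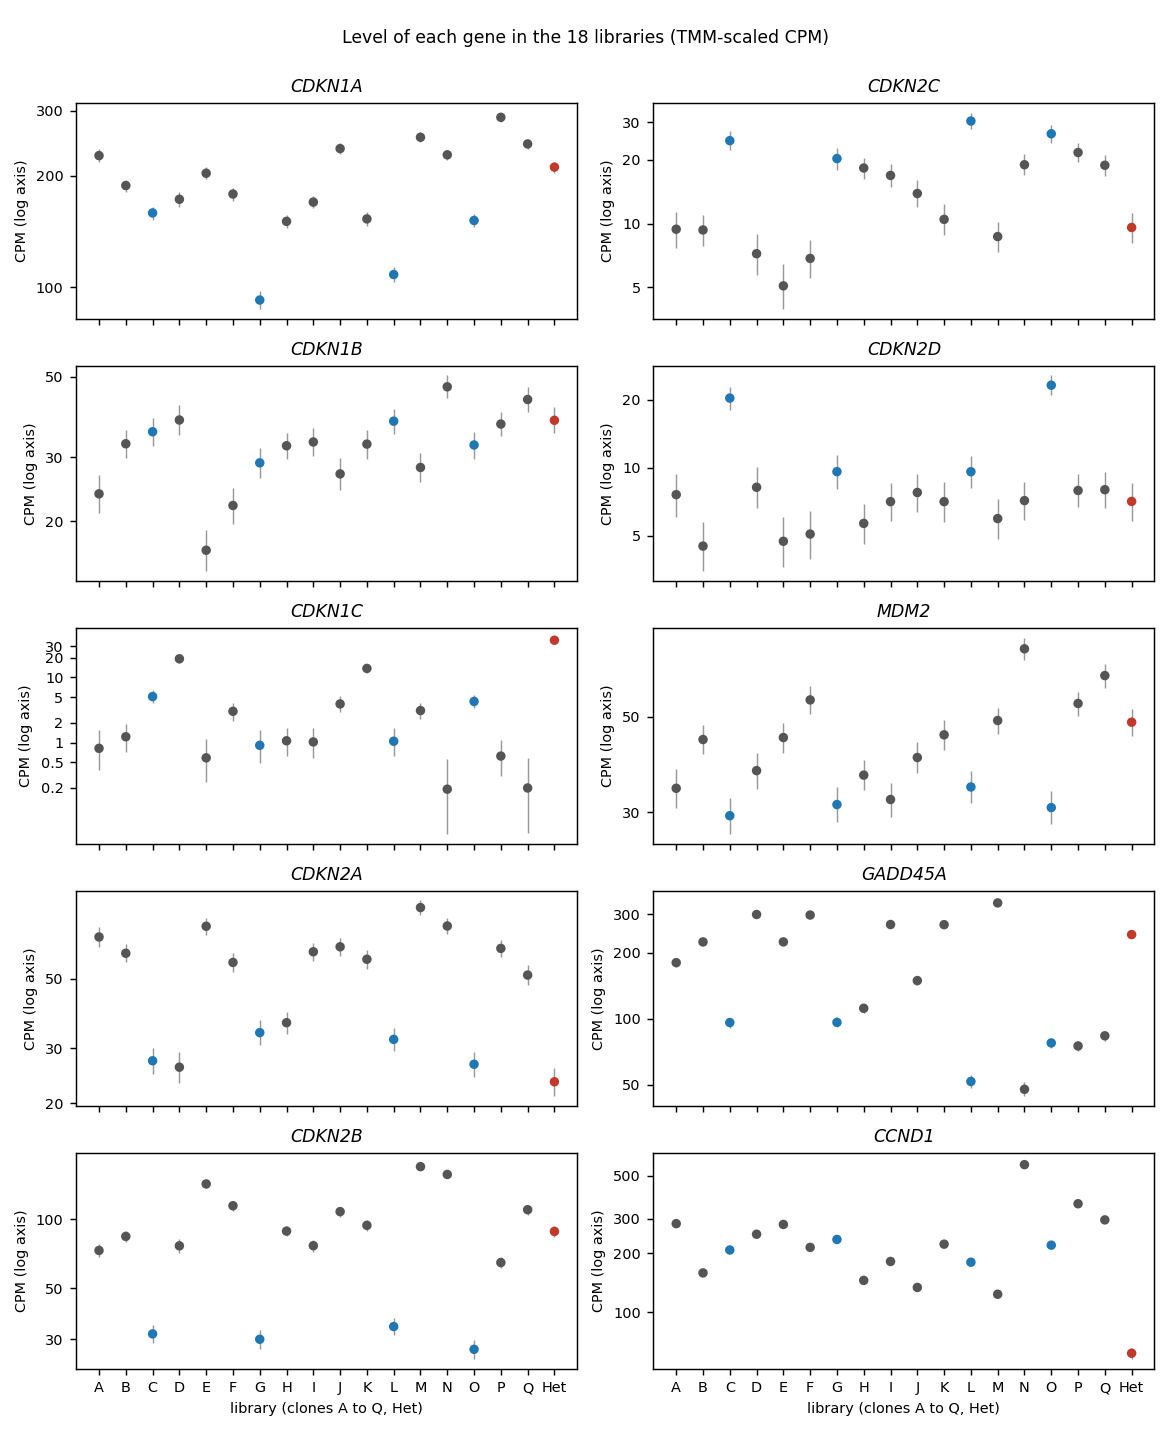
Level of each of the 10 genes in the 18 libraries, in TMM-scaled CPM on a log axis. Points are single libraries (blue for clones C, G, L and O, grey for the other clones, red for Het) and bars are 95% Poisson intervals, which cover counting error only. CDKN2B was lowest in the 4 blue clones, and Het lay below every clone for CDKN2A and CCND1 and above every clone for CDKN1C.

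Levels of these genes varied more between clones than those of most genes. The SD of the log2 level over the 17 clones, with 0.5 CPM added, had a median of 0.59 for the 10 genes, against 0.30 for all 10351 genes that passed a filter on low counts. All 10 had an SD above that overall median. The filter was passed by 9 of them, and CDKN1C was the exception. Counting error would give between 0.136% of the variance between clones (GADD45A) and 8.73% (CDKN1C), so most of the variance lay above counting error at this depth.

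CDKN1A encodes p21, the CIP/KIP inhibitor that p53 induces. Its level ran from 92.2 CPM in clone G through a median of 179 CPM to 288 CPM in clone P, with 211 CPM in Het. Clones G and L (108 CPM) stood apart at the low end, and every other clone was at 151 CPM or more. The spread (SD 0.43 on the log2 scale) was at the 74.0th percentile of all genes.

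CDKN1B, which encodes the inhibitor p27, had the smallest SD of the 10, although the ratio of highest to lowest clone was smaller for MDM2 (2.44 against 2.82). The range was 16.6 CPM (clone E) to 46.9 CPM (clone N) around a median of 32.6 CPM, and Het was at 38.0 CPM. The SD was 0.36, at the 64.0th percentile. When all 18 libraries were put in order of CDKN1B, the counting intervals of neighbours overlapped in 16 of 17 places.

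CDKN1C, the gene of the inhibitor p57, was close to the limit of detection in many clones and plentiful in a few libraries. Clones N and Q had 3 reads each, the median clone had 1.06 CPM, and clones K and D reached 13.8 and 19.4 CPM from 191 and 218 reads. Clones C (5.09 CPM), O (4.28 CPM), J (3.92 CPM), M (3.10 CPM) and F (3.02 CPM) were intermediate. Het exceeded every clone at 37.4 CPM (95% Poisson interval 34.4 to 40.6). The SD over clones, 1.40, was at the 99.2nd percentile.

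CDKN2A, whose row pools transcripts of the INK4 inhibitor p16INK4a with those of ARF, a protein that restrains MDM2, ranged from 26.1 CPM in clone D through a median of 57.7 CPM to 84.4 CPM in clone M. Clones C (27.3 CPM), O (26.7 CPM), L (32.0 CPM), G (33.6 CPM) and H (36.2 CPM) joined clone D in a low set, and no other clone was under 51.4 CPM (clone Q). Het was lower than all 17 clones, at 23.4 CPM, although its interval of 21.1 to 26.0 CPM overlapped those of the lowest clones. The SD was 0.57, at the 84.3rd percentile.

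CDKN2B encodes p15INK4b and is the next gene to CDKN2A in the cattle RefSeq table. Clones O, G, C and L had 27.1, 29.9, 31.6 and 34.0 CPM. The remaining 13 clones lay between 64.7 CPM (clone P) and 170 CPM (clone M), a gap away, and Het was among the latter at 88.5 CPM. Clones N (157 CPM) and E (143 CPM) followed clone M. Because CDKN2A and CDKN2B are related in sequence and the strand setting of the counting is not given in the sources used here, reads of near-identical stretches and of antisense transcripts at this locus could not be told apart.

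The remaining INK4 genes were highest in clones where CDKN2B was lowest. CDKN2C, the gene of p18INK4c, was highest in clone L (30.5 CPM), clone O (26.5 CPM) and clone C (24.6 CPM), with a median of 16.9 CPM, and lowest in clone E at 5.09 CPM. Clones P (21.7 CPM) and G (20.3 CPM) came next to the top. Het was at 9.59 CPM, below 11 clones. CDKN2D, the gene of p19INK4d, had a pair of high clones, O at 23.2 CPM and C at 20.4 CPM, which are the near twins. All others lay between 4.50 CPM (clone B) and 9.61 CPM (clone G), with Het at 7.09 CPM.

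MDM2, the ubiquitin ligase that degrades p53, ranged from 29.4 CPM in clone C through 40.2 CPM to 72.0 CPM in clone N, and clone Q followed at 62.4 CPM. Het was at 48.6 CPM. GADD45A, which acts in stress-induced arrest and DNA repair, spread widest among the genes that passed the filter (SD 0.93, 94.9th percentile). It was highest in clones M (338 CPM), D (299 CPM) and F (297 CPM), had a median of 149 CPM, and was lowest in clones L (51.8 CPM) and N (47.7 CPM). Its ordered libraries were also the best resolved, with overlapping counting intervals in 7 of 17 places.

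CCND1, the gene of the D-type cyclin that activates CDK4 and CDK6, ranged from 124 CPM in clone M through 220 CPM to 569 CPM in clone N, and clone P was second at 359 CPM. Het had 61.7 CPM (57.8 to 65.7), below every clone. Thus clone N, lowest in GADD45A, was highest in CCND1, MDM2 and CDKN1B, whereas clone M, highest in GADD45A, CDKN2A and CDKN2B, was the lowest clone in CCND1.

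To ask how the genes varied with cycling, the counts of the 17 clones were fitted with edgeR's quasi-likelihood test as a slope on the log2 level of MKI67, in log2 units per doubling of MKI67. Of 10350 genes, 38.6% passed an adjusted p of 0.05 (Benjamini-Hochberg over all genes), 18.9% with a positive and 19.7% with a negative slope. With scaling by library totals in place of TMM, 79.3% of the calls were positive, against 49.0%. Of the 9 members tested, 7 passed, 2 with a positive and 5 with a negative slope.

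The INK4 genes split. CDKN2B fell by 0.54 per doubling of MKI67 (SE 0.0728, adjusted p = 2.0e-05 by edgeR) and CDKN2A fell by 0.30 (SE 0.0685, adjusted p = 0.00251). In contrast, CDKN2C rose by 0.39 (SE 0.0789, adjusted p = 0.000829) and CDKN2D rose by 0.35 (SE 0.0700, adjusted p = 0.000749). With any single clone left out the slopes ranged from -0.56 to -0.51 for CDKN2B, -0.33 to -0.27 for CDKN2A, 0.36 to 0.43 for CDKN2C and 0.28 to 0.40 for CDKN2D, and all 4 still passed. Since the high end of CDKN2D was made of the near twins C and O, leaving out 1 of them keeps the other, and without both its slope was 0.15 (adjusted p = 0.0796 by edgeR).

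The p53 targets among the members had negative slopes. GADD45A fell by 0.43 (SE 0.114, adjusted p = 0.00703 by edgeR), CDKN1A by 0.20 (SE 0.0592, adjusted p = 0.0119) and MDM2 by 0.18 (SE 0.0556, adjusted p = 0.0143). The calls of CDKN1A and MDM2 were lost when libraries were scaled by their totals (slopes of -0.13 and -0.11), and that of MDM2 also with TOP2A in place of MKI67 (slope -0.17, adjusted p = 0.0695 by edgeR). CDKN1B (slope 0.04, SE 0.0616, adjusted p = 0.659) and CCND1 (slope -0.04, SE 0.106, adjusted p = 0.811) did not pass, and the sign of the CCND1 slope turned with scaling by library totals.

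Without clones C and O, also chosen after seeing the data, 21.5% of 10251 genes passed, and 3 of the 9 members did, CDKN2B (slope -0.47), CDKN2C (0.41) and CDKN1A (-0.25). GADD45A kept its slope of -0.43 at an adjusted p of 0.0512 by edgeR, and CDKN2A was at -0.24 (adjusted p = 0.0525). Without clones C, G, L and O, 2.57% of 10111 genes passed by edgeR and 0 of the 9 members did, with an unadjusted p under 0.05 for 2 of them, CDKN2B and CDKN2C. The slopes over these 13 clones were -0.30 for CDKN2B (adjusted p = 0.241 by edgeR), -0.14 for CDKN2A (adjusted p = 0.677), 0.45 for CDKN2C (adjusted p = 0.215) and 0.09 for CDKN2D (adjusted p = 0.743). They were -0.35 for GADD45A, -0.07 for CDKN1A and -0.12 for MDM2. Thus CDKN2C (0.45 against 0.39) and GADD45A (-0.35 against -0.43) had slopes of similar size with and without the 4 clones of high MKI67. Neither passed in the 13 clones, which span a narrower range of MKI67 (adjusted p = 0.215 and 0.519 by edgeR). Why these calls were lost was not tested. The slopes of CDKN2D and CDKN1A were much smaller without clones C, G, L and O. Those of CDKN2A and CDKN2B were smaller too (-0.14 and -0.30 against -0.30 and -0.54).

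**Figure D2:**
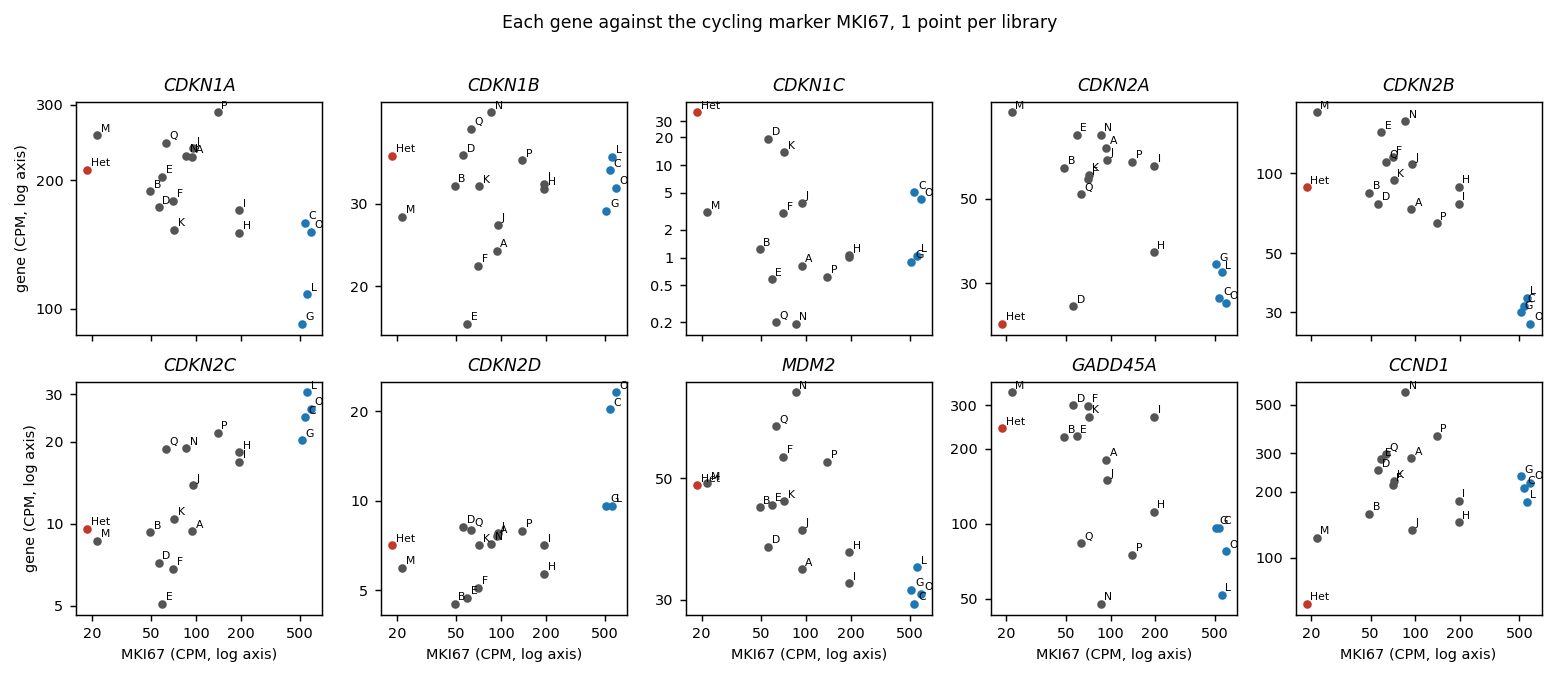
Level of each gene against MKI67 in the same library, both in TMM-scaled CPM on log axes. Each point is 1 library with its letter (blue for clones C, G, L and O, grey for other clones, red for Het). The blue clones, at 512 to 593 CPM of MKI67, lie low for CDKN2B and high for CDKN2C.

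Other genes of cycling and of the CDK and retinoblastoma pathway gave the setting of these slopes. All 21 cycling genes listed rose with MKI67, among them CCNB1 (slope 0.95) and CCNA2 (0.98), which encode mitotic cyclins, and BUB1 (0.86), a kinase of the spindle checkpoint. They also passed in the 13 clones, 21 of 21. Their median slope was 0.84, against -0.01 over all genes. Of 18 genes of the CDK and retinoblastoma list tested, 10 rose, including the transcription factor gene E2F1 (0.94), the retinoblastoma relative RBL1 (0.50) and the kinase gene CDK2 (0.53). FOXO3, a transcription factor of quiescence and stress, was the 1 gene that fell (slope -0.17). In the 13 clones 3 of the 18 passed.

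Of 19 other p53 targets tested, 9 fell and 3 rose with MKI67, with a median slope of -0.11. ZMAT3, an RNA-binding protein gene, fell by 0.38, TP53INP1, a gene of stress-induced death and autophagy, by 0.44, and SESN2, a stress sensor that restrains mTOR signalling, by 0.45. Those that rose were POLH (0.38), a polymerase that copies damaged DNA, FDXR (0.18), a mitochondrial reductase gene, and AEN (0.08), a nuclease gene. In the 13 clones 2 of 19 passed.

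Of 7 senescence-associated genes tested, 3 rose with MKI67 and 1 fell. Among those that rose were LMNB1 (slope 0.86), the lamin gene that is lost in senescence, and HMGB2 (0.49), a chromatin protein gene. GLB1, which encodes the lysosomal beta-galactosidase used as a senescence stain, fell (slope -0.34). In the 13 clones 1 of the 7 passed.

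The second question was whether members and other p53 targets varied with CDKN1A. In the same kind of fit, 16.1% of 10350 genes had a slope on CDKN1A that passed, 7.86% positive and 8.28% negative. Of the 8 members tested, CDKN2A rose by 0.89 per doubling of CDKN1A (SE 0.225, adjusted p = 0.0167 by edgeR), CDKN2B by 1.36 (SE 0.358, adjusted p = 0.0189) and MDM2 by 0.59 (SE 0.172, adjusted p = 0.0284). The other p53 target, GADD45A, did not pass (slope 0.44, SE 0.577, adjusted p = 0.632), and its sign turned with scaling by library totals (-0.20). CCND1 (0.47), CDKN1B (0.06), CDKN2C (-0.46) and CDKN2D (-0.55) did not pass either. In simulated counts this edgeR fit found 0.5% of planted slopes of 0.5 and 72.5% of planted slopes of 1. Failing to pass at a slope near 0.5 therefore does not show that a slope is absent.

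The calls, though not the size of the slopes, depended on single clones. Without clone G, the lowest in CDKN1A, 0 members and 414 genes passed by edgeR, and without clone L 0 members and 610 genes, with CDKN2A, CDKN2B and MDM2 still at an unadjusted p under 0.05 in both. The slopes of CDKN2A, CDKN2B and MDM2 were 1.03, 1.30 and 0.63 without clone G and 0.88, 1.28 and 0.61 without clone L, close to those over 17 clones. Without clones C and O 11.9% of genes and 2 members passed, CDKN2A (0.79) and CDKN2B (1.21), and MDM2 was at 0.52 (adjusted p = 0.0586 by edgeR). Leaving out clone Q gave 1042 genes and lost MDM2. Without clones C, G, L and O, 0.178% of genes passed and 0 members, 1 of which (CDKN2A) had an unadjusted p under 0.05, with slopes of 0.77 for CDKN2A (adjusted p = 0.372 by edgeR), 0.48 for CDKN2B (adjusted p = 0.661) and 0.57 for MDM2 (adjusted p = 0.443). With MKI67 as a second covariate over all 17 clones 0 members passed, CDKN2C alone had an unadjusted p under 0.05, and the slopes of CDKN2A, CDKN2B and MDM2 were 0.47, 0.31 and 0.37. The MDM2 slope of the 13 clones was close to that over 17, whereas that of CDKN2B was smaller.

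**Figure D3:**
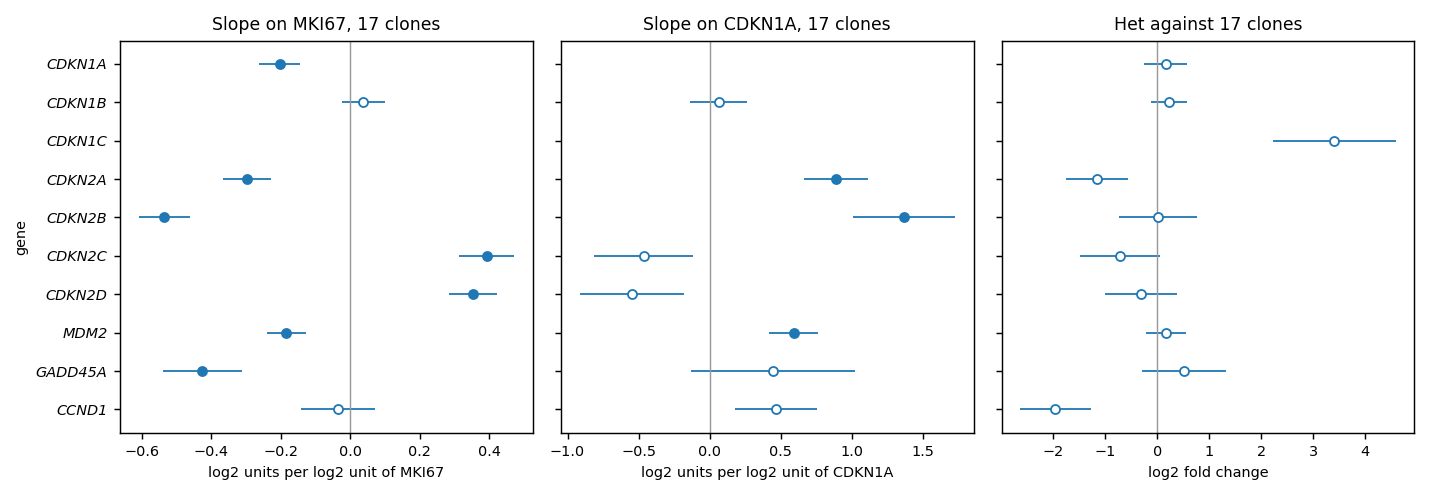
Slope of each gene on MKI67 (left) and on CDKN1A (middle) over 17 clones, and log2 fold change of Het against the clones (right), from edgeR. Bars are standard errors and filled points passed an adjusted p of 0.05. CDKN2C and CDKN2D lie to the right of 0 on MKI67 and CDKN2A and CDKN2B to the left, and no point is filled for Het.

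Of the 19 other p53 targets, 4 rose with CDKN1A and 1 fell, with a median slope of 0.45 against 0.03 over all genes. TP53I3 (0.98), a quinone oxidoreductase gene, BTG2 (0.68), an antiproliferative factor, BBC3 (0.79), which encodes the death protein PUMA, and ZMAT3 (0.81) rose, and FDXR fell (slope -0.61). ZMAT3 was near the threshold (adjusted p = 0.0497 by edgeR). Of these targets 3 passed with library totals, 1 without clone G, 1 with MKI67 as second covariate and 9 with DESeq2. All 21 cycling genes fell, for instance BUB1 (slope -2.04), the helicase subunit MCM6 (-1.04) and the mitotic kinase AURKB (-1.38). That count was 5 of 21 without clone G and without clone L, 2 with scaling by library totals and 0 with MKI67 as a second covariate (1 at an unadjusted p under 0.05 by edgeR). Of the CDK and retinoblastoma list, FOXO3 rose by 0.67 and 7 of 18 genes fell. Those of smallest p were the cyclin gene CCNE2 (-1.10), RBL1 (-1.16) and SKP2 (-1.10), a subunit of the ligase that degrades p27, while E2F1 had the steepest slope (-2.11). LMNB1 (-1.89) and HMGB2 (-1.03) fell among 7 senescence-associated genes. In the 13 clones 0 genes of these lists passed by edgeR, and an unadjusted p under 0.05 was found for 3 p53 targets, 0 cycling genes, 1 gene of the CDK and retinoblastoma list and 2 senescence-associated genes.

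Het was then set against the 17 clones in an edgeR fit that assumes this single library to vary as the clones do. Of 11878 genes, 1.22% passed, 1.21% higher and 0.00842% lower in Het, and 912 genes had an unadjusted p under 0.05. Of the 10 members 0 passed by edgeR or DESeq2, and 2, CDKN1C and CCND1, had an unadjusted p under 0.05 by edgeR. CDKN1C did not pass the filter over the clones and entered this fit because a level above the minimum in 1 library is enough here. That entry favours a higher value in Het. For CDKN1C the log2 fold change was 3.41 (SE 1.18) by edgeR, and 4.53 with limma-voom, which alone among the tools tried called it. In simulated counts 15.2% of limma calls were false at a planted log2 size of 2 and 9.76% at 4, against 2.38% by edgeR. CCND1 had a log2 fold change of -1.96 (SE 0.676, unadjusted p = 0.00922, adjusted p = 0.388), and CDKN2A had -1.17 (SE 0.597, adjusted p = 0.666). With no test, Het lay outside the range of all clones for 17.6% of the 10351 genes that passed the filter and for 2 of the 9 members among them, CDKN2A and CCND1, and CDKN1C lay outside as well.

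The remaining members had small differences relative to their errors in Het, from -0.72 for CDKN2C (SE 0.765) to 0.51 for GADD45A (SE 0.808). The 19 p53 targets had a median log2 fold change of 0.04, and 0 passed (1 at an unadjusted p under 0.05). The 21 cycling genes had a median of -2.65, and 0 passed by edgeR, DESeq2 or limma-voom, with 3 at an unadjusted p under 0.05 by edgeR and 16 by DESeq2. The 19 genes of the CDK and retinoblastoma list had a median of -0.57, and 0 passed. Of the 10 senescence-associated genes, IL8 and CCL2, which encode chemokines, were called higher in Het. Neither passed the filter over the clones, and a high level in 1 library is enough to enter this fit, which favours calls in that direction. IL8 had 0 to 3 reads in the clones and 2.89 CPM in Het (log2 fold change 5.92, adjusted p = 4.65e-05 by edgeR), and CCL2 had 0 to 12 reads in the clones and 17.9 CPM in Het (5.49, adjusted p = 5.49e-06). The macrophage markers given above were also higher in this library, and their part in the result was not tested.

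Finally, the members were compared with each other over the 17 clones. In the 45 pairs, permutation tests of Pearson r (100000 resamples, two-sided) gave 12 with an adjusted p under 0.05, 8 positive and 4 negative, and in the 13 clones 0, with 7 at an unadjusted p under 0.05. The share over pairs of all genes was not computed. A slope on MKI67 was called for 38.6% of all genes in the 17 clones, but that is a share of genes and not of pairs. Whether the count sets these genes apart was therefore not tested. Without clones C and O 1 pair passed, that of CDKN2C with GADD45A. The clones fell into separate sets for CDKN1C, CDKN2A, CDKN2B and CDKN2D, to which 9 of the 12 pairs belong. For tests of their pairs the 13 clones alone are given. This does not remove every set, since clones D and H still stood apart for CDKN2A and clones D and K for CDKN1C.

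The most negative relation was that of CDKN2C with GADD45A. Over 17 clones Pearson r was -0.833 (permutation p = 0.00013, adjusted p = 0.00292) and Spearman rho was -0.850 (permutation p = 3e-05, adjusted p = 0.00135). Without clones E and F, the farthest from the median of CDKN2C, r was -0.850. In the 13 clones r was -0.757 (permutation p = 0.00289, adjusted p = 0.0994), so that the size held without the clones of high MKI67, although the adjusted p did not pass. Clones L, O and P were high in CDKN2C and low in GADD45A, and clones D, E and F the reverse. Clone N, lowest in GADD45A, had 19.0 CPM of CDKN2C, nearer its median of 16.9 CPM.

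CDKN1A and MDM2 had r = 0.626 (permutation p = 0.00716, adjusted p = 0.0293) and rho = 0.672 (permutation p = 0.00395, adjusted p = 0.0254). The call was lost with library totals (r = 0.583, permutation test, adjusted p = 0.0543), without clones C and O (r = 0.618, adjusted p = 0.0595) and on leaving out clone G, P or Q alone, where adjusted p was 0.0625, 0.0576 and 0.0590 by permutation. Without clones G and L r was 0.590, and in the 13 clones it was 0.463 (permutation p = 0.112, adjusted p = 0.344). CDKN1A and GADD45A gave r = 0.166 (permutation p = 0.526, adjusted p = 0.640) and rho = 0.0858 (permutation p = 0.745, adjusted p = 0.818), with r = -0.197 without clones G and L and -0.450 in the 13 clones (permutation p = 0.122). The pair of p53 targets thus differed in sign beside CDKN1A without clones G and L, where no test was run. They also differed in sign in the 13 clones, where neither relation passed.

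CDKN1B and CDKN2C gave r = 0.648 (permutation p = 0.00369, adjusted p = 0.0184) and rho = 0.517 (permutation p = 0.0351, adjusted p = 0.113). The relation leaned on clones E and F, low in both genes, since r was 0.371 without them. In the 13 clones, which include E and F, r was 0.725 (permutation p = 0.00442, adjusted p = 0.0994). The neighbours CDKN2A and CDKN2B gave r = 0.481 in the 13 clones (permutation p = 0.0924, adjusted p = 0.344), and CDKN2B with MDM2 gave 0.548 (permutation p = 0.0522, adjusted p = 0.250). CCND1 had no pair that passed, and its most negative value in the 13 clones was with GADD45A (r = -0.618, permutation p = 0.0244, adjusted p = 0.250).

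**Figure D4:**
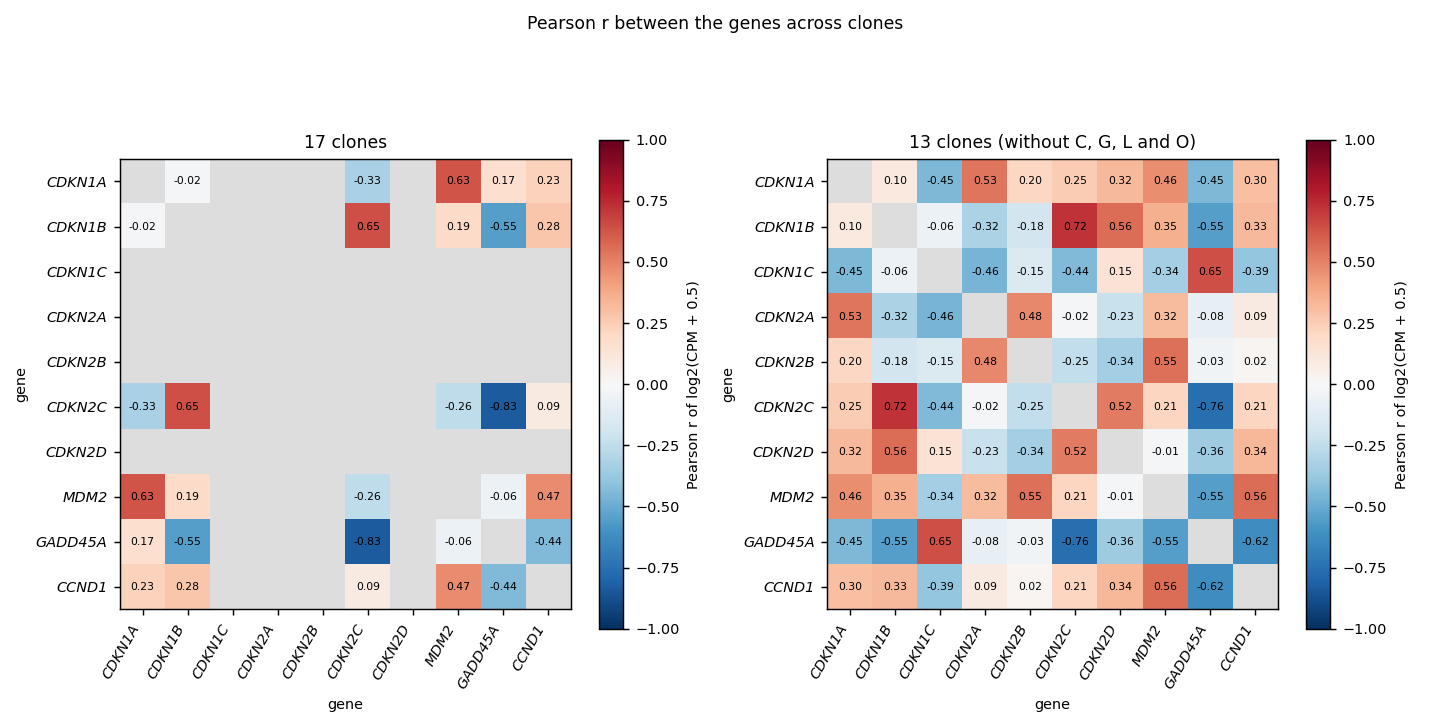
Pearson r of log2(CPM + 0.5) for each pair of the 10 genes over 17 clones (left) and over 13 clones without C, G, L and O (right), on a colour scale from -1 (blue) to 1 (red). Pairs of CDKN1C, CDKN2A, CDKN2B and CDKN2D are grey on the left, where clones fell into separate sets. For CDKN1C and CDKN2A such sets remain on the right. CDKN2C and GADD45A are at -0.83 over 17 clones and -0.76 over 13.

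The genes whose pattern over the 17 clones was most like that of each member, by Pearson r of the log2 level and as a description only, were mostly outside the listed pathways. For MDM2 they were POLK (0.961), a polymerase that copies damaged DNA, TM2D1 (0.942) and ARFIP1 (0.939). For CDKN1A they were VKORC1 (0.924), MVP (0.921) and YIPF3 (0.921). The p53 target BTG2 was second for CDKN2A (0.865), after TFG (0.882) and before HADHA (0.862). For CDKN2B they were GABARAP (0.946), a gene of autophagy, VPS13B (0.939) and LAMP2 (0.936), a lysosomal membrane protein gene.

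For CDKN2C the genes most alike were PSIP1 (0.939), ZBTB14 (0.939) and WDR76 (0.937), and for CDKN2D CHST14 (0.933), TOR3A (0.927) and PAPSS2 (0.926). GADD45A went with DNASE2 (0.956), a lysosomal nuclease gene, PEX19 (0.949) and COX14 (0.943). CDKN1B went with UIMC1 (0.865), USPL1 (0.858) and THBS2 (0.853), and CCND1 with MMP28 (0.867), ORAOV1 (0.851) and HSPH1 (0.847). These values are the highest of all genes passing the filter for each member, and share the libraries, their scaling and the 4 clones of high MKI67.

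The genes next to the members in the cattle RefSeq table gave values of r from negative to high, as a description over the same 17 clones. Of 20 neighbouring places, 17 held a gene whose name was matched in the counts, and 11 a matched one that passed the filter. Genes counted under another name were missed, among them LTO1 next to CCND1, which was counted as ORAOV1. Among these 11, CDKN2A and CDKN2B, each other's neighbours, had the highest value, 0.793, with clones C, G, L and O low in both. ORAOV1, the older name of LTO1, had a higher value with CCND1 (0.851, given above). MTAP, on the other side of CDKN2A from CDKN2B, ranged from 12.9 to 23.8 CPM over the clones, with r = -0.375 to CDKN2A, whereas CDKN2A itself ranged from 26.1 to 84.4 CPM. GNG12 had 0.766 with GADD45A, SLC35E3 had 0.669 with MDM2, and KRI1 had 0.546 with CDKN2D. Among all genes passing the filter, these had rank 488, 880 and 1761 in r for their member. CDKN2B had rank 20 for CDKN2A, and CDKN2A had rank 303 for CDKN2B. The other neighbours had 0.272 (the gene named CPM, with MDM2), 0.0652 (SERBP1, GADD45A), 0.0175 (APOLD1, CDKN1B), -0.165 (FAF1, CDKN2C) and -0.453 (RPS4Y1, CDKN1A).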

How the data were processed

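Poly-adenylated RNA of 17 clones and the heterogeneous population was read by the authors as 50-base single-end reads, aligned with STAR 2.3.0e to bosTau7 and counted with HTSeq on RefSeq annotation release 103. The deposited values are raw counts per gene, without normalization. The 5 tally lines of each file that name no gene were left out (18.78% to 26.81% of reads lay outside genes). Levels are TMM-scaled CPM. Slopes on MKI67 and CDKN1A (log2 CPM, prior count 2) and Het against clones were tested with edgeR 4.0.16 (filterByExpr, glmQLFit, glmQLFTest, R 4.3.3), with Benjamini-Hochberg adjustment over all genes. DESeq2 1.42.0, limma 3.58.1, other scalings, no filter and each clone left out were alternatives. The fits were tested on simulated counts. Pair tests used Python 3.11.15. Members, lists and tests were chosen with earlier results of these data known. Named genes are the 10 members, MKI67, the 3 genes most like each member, up to 3 called genes of smallest p per list and direction, and neighbours in the RefSeq table. That table is of ARS-UCD2.0, another assembly than that of the reads, and was used for names and gene order only. Values of some listed genes are not reported here. Intervals cover counting error only. The authors' series-wide table was not used.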

Additional observations from a re-analysis of the deposited data

How the results depend on the processing

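Of 1612 values recomputed under alternatives, 1460 kept their direction and their side of the threshold, or stayed within 1.5 times for a count. The heterogeneous library against the clones gave 88 genes with DESeq2 (87.5% of them higher, against 99.3%) and 1 member with limma-voom. The alternatives without clones C, G, L and O, those without clones C and O, and that of Het with MKI67 as a covariate, were chosen after seeing the data. Without those 4 clones the slope on MKI67 was called for 260 genes and 0 members, the slope on CDKN1A for 18 genes and 0 members, and 0 pairs passed. Without clones C and O the slope on MKI67 was called for 2201 genes and 3 members, and 1 pair passed. With MKI67 as a second covariate 345 genes and 0 members had a slope on CDKN1A, and with library totals 973 genes. Each clone left out in turn gave 414 to 1929 genes and 0 to 3 members for that slope. The cause was not tested.

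Values that turned in sign were all short of the threshold. In Het, CDKN2B was -0.04 with library totals and -0.03 to 0.11 with each clone left out. With MKI67 as a covariate the Het difference was -0.37 for CDKN1A, -1.29 for CDKN2B, 0.46 for CDKN2C, 0.75 for CDKN2D, -0.31 for MDM2 and -0.53 for GADD45A. The slope of CCND1 on MKI67 was 0.03 with library totals, 0 with limma-voom, 0.02 on TOP2A in place of MKI67, 0.16 in the 13 clones and -0.12 to 0 with each clone left out. The slope of CDKN1B on CDKN1A was -0.05 to 0.11 with each clone left out. The slope of GADD45A on CDKN1A was -0.20 with library totals, -1.08 in the 13 clones and -0.96 with MKI67 as a second covariate. In those last 2 settings CDKN2C had 0.54 and 0.74, and CDKN2D 0.32 and 0.54.

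With 1 library per clone and 1 for Het, technical and clonal spread cannot be told apart. The 3 to 18 reads of CDKN1C in 10 clones measure it poorly.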
